A study of Mus musculus with 19 samples.

Results

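The genes described here are 34 that encode the machinery of glycolysis and of the response to low oxygen. They were named by symbol for these functions, with earlier results of the same arrays known, and all 34 were found among the 20998 genes of the table. They comprise 5 transporters of glucose and lactate, 9 genes of the hexokinase and upper glycolysis steps, 6 of lower glycolysis, 3 of pyruvate and lactate metabolism, 3 of the hypoxia-inducible factor (HIF) pathway and its oxygen sensors, and 8 other genes known to be induced by hypoxia. Affymetrix MoGene 2.0 ST arrays had been used to measure RNA of macrophages and of inflammatory monocytes (Ly6C+), both sorted from the marrow of mice. The 19 arrays fell into 4 groups: macrophages from healthy marrow (5 arrays), macrophages from marrow with bone metastasis (5), monocytes from healthy marrow (5) and monocytes from marrow with bone metastasis (4). The metastases were seeded by intracardiac injection of MetBo2 cells, and the recipients were females aged 4 weeks. MetBo2 is a clone selected for homing to bone from Met-1, a mouse mammary tumour line of the PyMT oncogene model. The strain of the mice and the sort markers of the macrophages are not given. Neither are the age and any sham injection of the healthy mice, so an effect of age or injection and that of metastasis cannot be told apart. Whether replicate arrays stem from different animals is not labelled, and the p-values therefore measure the spread between these arrays. Array numbers below only name the arrays of a group and pair nothing between groups.

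Glycolysis splits glucose into pyruvate in the cytosol and yields ATP without oxygen. Glucose enters through facilitative transporters, hexokinase traps it as a phosphate, phosphofructokinase commits it to breakdown, and lactate dehydrogenase regenerates the cofactor that keeps the pathway running while the lactate leaves through monocarboxylate transporters. HIF-1 is a transcription factor whose alpha subunit is hydroxylated by prolyl hydroxylases and degraded when oxygen is present; at low oxygen it accumulates and binds short DNA elements, called hypoxia response elements, at many glycolytic genes. Myeloid cells are known to rely on glycolysis when activated, and in macrophages HIF-1 alpha is also stabilised by inflammatory signals at normal oxygen.

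All levels below are log2 values as deposited, and a difference of 1 is a doubling. A group value is a mean ± SD over arrays, and a difference is given ± its SE from limma, a linear model fitted over all 20998 genes and all 19 arrays, with adjusted p by Benjamini-Hochberg over all genes and a threshold of 0.05. Y-linked genes, absent from females, read between 2.12 and 2.87 and show where absent RNA lies. No member was at or below that level on all arrays of a group, although Pfkm, Eno2, Adm and P4ha2 had values within 1 log2 unit of it. The array medians lay between 4.45 and 4.55.

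The labelled cell types were checked first. The macrophage arrays carried more RNA of the marrow macrophage genes Slc40a1 (4.09 ± 0.17 above monocytes in healthy marrow), Vcam1 (2.05 ± 0.17) and Spic (1.37 ± 0.15). They carried less of Adgre1, a classical macrophage surface marker gene (-0.63 ± 0.15, adjusted p = 0.00240 in limma), and of Csf1r, the receptor of macrophage colony-stimulating factor (-0.51 ± 0.16, adjusted p = 0.0223 in limma). Of 12 macrophage markers in healthy marrow, 6 were higher in the macrophage arrays and 2, Adgre1 and Csf1r, lower. Of 10 monocyte markers, 2 were higher and 8 lower in the macrophage arrays. Neutrophil granule RNA was abundant in them: the lactoferrin gene Ltf read 12.15 to 12.40 in healthy macrophage arrays and 6.71 to 8.20 in healthy monocyte arrays. The neutrophil chemokine receptor gene Cxcr2 read 8.20 to 9.01 and 5.07 to 6.22, respectively. Of 13 neutrophil markers, 7 were higher and 4 lower in the macrophage arrays of healthy marrow, and their summed level (log2 of the sum of the unlogged values) was 14.2 to 14.5 against 12.8 to 13.1 in the monocyte arrays. All 12 B lineage markers were also higher there. Of 10 T and NK markers 6 were higher and 0 lower, with a summed level of 9.54 to 10.2 against 8.14 to 8.24 in the monocyte arrays. The macrophage arrays are therefore called the macrophage sort below, with no claim that macrophages alone supplied the RNA. In bulk RNA, fewer cells of a type and less RNA per cell cannot be told apart.

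**Figure D1:**
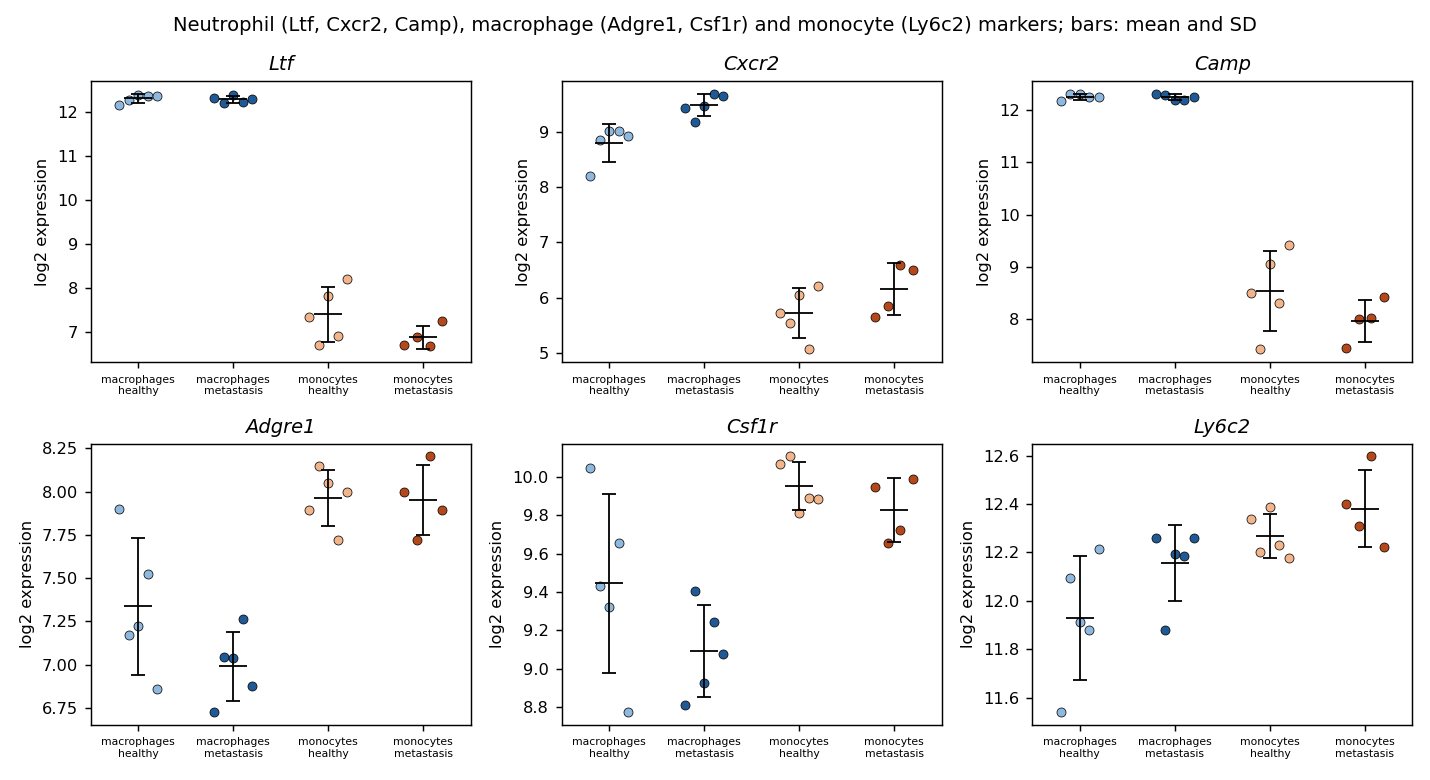
Deposited log2 level of 6 marker genes on each of the 19 arrays, by group; each point is 1 array, and the lines give the group mean and SD. The neutrophil genes Ltf, Cxcr2 and Camp are higher in both macrophage groups, whereas the macrophage genes Adgre1 and Csf1r and the monocyte gene Ly6c2 are not. These 6 do not stand for their lists. In healthy marrow 7 of 13 neutrophil markers were higher in the macrophage arrays and 4 lower. Of 12 macrophage markers 6 were higher and 2 lower, and of 10 monocyte markers 2 were higher and 8 lower.

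The first comparison asked how metastasis in the marrow went with these genes in each cell type. Slc2a1, which encodes the glucose transporter GLUT1, was higher with metastasis in both. In the macrophage sort it read 7.38, 7.02, 7.13, 7.23 and 7.23 on the healthy arrays and 7.55, 7.80, 7.79, 7.83 and 7.97 on the metastasis arrays. Every metastasis array lay above every healthy one. The mean went from 7.20 ± 0.13 to 7.79 ± 0.15 (SD, n = 5 each). The rise was 0.59 ± 0.09 (95% interval 0.40 to 0.79), or 1.51-fold (limma, adjusted p = 0.00147). In monocytes Slc2a1 read 7.57, 7.75, 7.80, 7.90 and 7.73 on the healthy arrays and 8.10, 8.26, 8.11 and 8.39 on the metastasis arrays. Again no array of one group reached the other. The monocyte mean went from 7.75 ± 0.12 (SD, n = 5) to 8.22 ± 0.14 (SD, n = 4). The monocyte rise was 0.47 ± 0.10 (95% interval 0.26 to 0.67), or 1.38-fold (limma, adjusted p = 0.0296). The monocyte call was lost in 7 of the 9 fits that left out 1 array: adjusted p was 0.108, 0.0585, 0.056 and 0.0716 without healthy array 1, 2, 3 or 5, and 0.109, 0.0537 and 0.123 without metastasis array 2, 3 or 4. It was also lost after quantile normalization (adjusted p = 0.0515). Of 15 alternatives in all it held in 7, with adjusted p in limma between 0.00304 and 0.123 over the 15. The macrophage call held in every alternative run. The difference between the rises, 0.13 ± 0.14 (95% interval -0.16 to 0.41, adjusted p = 0.893 in limma), did not pass.

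Slc2a1 was the only member past the threshold in either cell type. In the macrophage sort this was 1 of 34 members, while 1.23% of all genes passed. In monocytes it was also 1 of 34, while 0.514% of all genes passed. The median difference of the members was 0.11 in the macrophage sort and 0.06 in monocytes, beside 0.00 and -0.01 over all genes. The macrophage median was 0.03 when healthy macrophage array 1 was left out. Positive differences were found for 24 of 34 members in the macrophage sort and 21 in monocytes, beside 10629 and 9798 of all 20998 genes. The sign was the same in both cell types for 19 of 34 members, where it was so for 55.2% of all genes. These comparisons share no arrays. The correlation of the members' differences between the cell types was 0.427 across genes (0.264 over all genes). It is a description, since genes of one array are not independent.

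**Figure D2:**
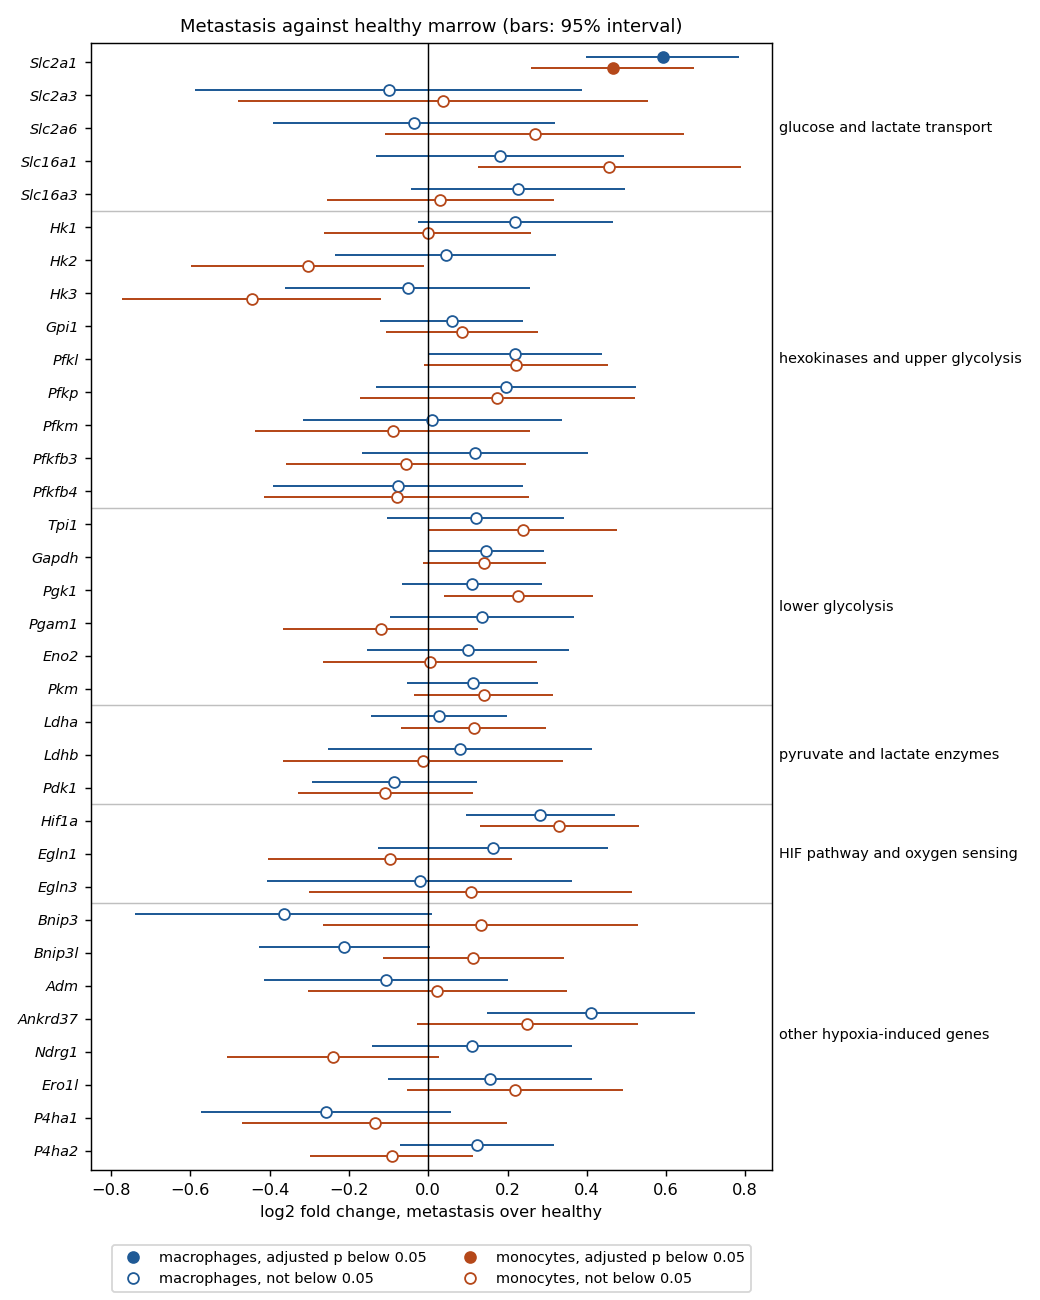
Difference of metastasis minus healthy marrow (log2) for each of the 34 members in the macrophage sort and in monocytes, grouped by role, with 95% intervals from limma; filled points passed the adjusted threshold. Slc2a1 is the only filled point in either cell type, at 0.59 and 0.47, and most intervals cross 0.

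Markers of other cells also moved with metastasis in the macrophage sort. Of 23 cell cycle genes 3 rose (Mki67, Kif11 and Ube2c), and the summed level of the list was 12.6 to 13.3 on healthy and 13.2 to 13.5 on metastasis arrays. The B lineage sum was 10.7 to 11.2 on healthy and 9.12 to 10.8 on metastasis arrays, with 3 of 12 genes lower. The neutrophil sum was 14.2 to 14.5 on healthy and 14.4 to 14.6 on metastasis arrays, with Prtn3 of 13 genes higher. Of 12 macrophage markers, Mrc1 (-1.34 ± 0.20) and Spic (-0.67 ± 0.15) fell, and the summed level was 10.83 to 11.44 and 10.81 to 10.96. Mrc1 read 5.27 to 6.74 on healthy and 4.00 to 4.70 on metastasis arrays. Of 10 monocyte markers, Vcan rose (1.47 ± 0.26), from a range of 6.16 to 8.11 to one of 8.05 to 8.99, and the summed level was 14.0 to 14.2 and 14.1 to 14.3. The same sum was 14.4 to 14.6 in healthy monocytes, in which Slc2a1 was also higher than in the healthy macrophage sort. Of the T and NK markers Cd8a rose, and of the erythroid markers Car1 fell. The part of these cells in the Slc2a1 rise was not tested.

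In monocytes none of the 23 cell cycle and none of the 13 neutrophil genes passed in limma, and the neutrophil sum was 12.8 to 13.1 in healthy and 12.8 to 13.1 in metastasis arrays. Vcan of the 10 monocyte markers rose there too (1.33 ± 0.27). The sums of 3 other lists were lower on every metastasis array of monocytes than on every healthy one, although no gene of them passed. The B lineage sum was 8.10 to 8.30 on healthy and 7.96 to 8.09 on metastasis arrays, the T and NK sum 8.14 to 8.24 and 7.78 to 8.13, and the erythroid sum 7.48 to 8.29 and 7.44 to 7.48. Their part in the monocyte rise of Slc2a1 was not tested. No epithelial tumour marker of 12 passed in either comparison, and Esrp1 and Elf3 lay at the Y-linked level in both metastasis groups.

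Hif1a, the gene of the regulated HIF-1 alpha subunit, had higher means with metastasis in both cell types but passed in neither alone. In the macrophage sort it read 6.22, 6.03, 6.22, 6.19 and 6.14 on healthy arrays and 6.53, 6.20, 6.50, 6.53 and 6.45 on metastasis arrays. The groups overlapped through metastasis array 2, which read among the healthy arrays, while the other 4 lay above all of them. In monocytes Hif1a read 6.72, 7.04, 6.88, 7.01 and 6.63 on healthy arrays and 7.10, 7.28, 7.13 and 7.23 on metastasis arrays. There the groups did not overlap. The differences, 0.28 ± 0.09 in the macrophage sort (adjusted p = 0.139) and 0.33 ± 0.10 in monocytes (adjusted p = 0.186), did not pass in limma, although the monocyte one did with array weights (adjusted p = 0.0346). A further contrast, chosen after these values were seen, averaged the metastasis differences of the cell types. In it 2 of 34 members passed, Slc2a1 (0.53 ± 0.07, adjusted p = 9.8e-05) and Hif1a (0.31 ± 0.07, 1.24-fold, adjusted p = 0.0151 in limma), while 1.74% of all genes did. Hif1a kept this call in all 19 fits with 1 array left out (highest adjusted p 0.0464). Hif1a was -0.05 ± 0.13 apart between the cell types in its metastasis difference (95% interval -0.32 to 0.23), which did not pass either.

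Promoter sequence was available from RefSeq (build GRCm38.p6) for 31 of the 34 members, under the name Ero1a for Ero1l. The windows ran from 250 bases before to 50 bases after each gene start and were searched on both strands for the core of the hypoxia response element, written as ACGTG or GCGTG. The upstream bases of Slc2a1 and Hif1a, the members that passed above, are shown with each core match in capitals, printed on the gene's strand, so that CACGT and CACGC are matches on the opposite strand.
Slc2a1 (chr4:119108495-119108744, plus strand): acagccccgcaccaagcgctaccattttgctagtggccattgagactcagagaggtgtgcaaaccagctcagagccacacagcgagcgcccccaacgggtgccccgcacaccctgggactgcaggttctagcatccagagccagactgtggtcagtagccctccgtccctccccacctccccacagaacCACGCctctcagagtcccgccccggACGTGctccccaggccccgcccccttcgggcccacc
Hif1a (chr12:73907617-73907866, plus strand): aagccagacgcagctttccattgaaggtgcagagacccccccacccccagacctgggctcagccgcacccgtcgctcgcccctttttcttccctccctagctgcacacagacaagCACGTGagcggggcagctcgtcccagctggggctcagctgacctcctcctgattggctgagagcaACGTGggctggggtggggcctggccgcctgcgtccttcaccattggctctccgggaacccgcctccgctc
In Slc2a1 the matches began 61 and 36 bases before the gene start. In Hif1a they began 135, 134 and 70 bases before it, and the first pair is the same palindrome, CACGTG, read on both strands. That palindrome is also the E-box that other factors bind. Over the members, 28 of 31 (90.3%, exact 95% interval 74.2 to 98.0%) held a core in at least 1 window, against 46.7% of 27025 genes in the promoter table and 54.4% of the 16449 genes that were also on the array. For ACGTG alone the shares were 67.7% of members, 21.8% of the table and 24.2% of the genes on the array. The member windows were also richer in G and C (62.1% against 56.9% for windows of genes on the array) and in CpG (7.09 against 5.34 per 100 bases). A match of these letters is a description and not a site of binding. The members were chosen for glycolysis and the hypoxia response and are not a sample of genes. Their share beside that of all genes is therefore no test of enrichment. The 3 members without a core in any window were Gpi1, Eno2 and Tpi1, and those without a window were Slc2a3, Bnip3l and Ndrg1.

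The other members did not pass with metastasis in either cell type. Of the transport genes besides Slc2a1, Slc16a1, the lactate and pyruvate carrier MCT1, stood at 0.18 ± 0.15 in the macrophage sort and 0.46 ± 0.16 in monocytes (adjusted p = 0.352 in limma). Slc16a3, the lactate exporter MCT4, stood at 0.23 ± 0.13 and 0.03 ± 0.14. Slc2a3, the high-affinity glucose transporter GLUT3, stood at -0.10 ± 0.23 and 0.04 ± 0.25, and Slc2a6, a transporter of the lysosomal membrane, at -0.04 ± 0.17 and 0.27 ± 0.18. None of these 4 passed. The SE of Slc2a3 was the widest among the transporters in both cell types. In limma the 4 groups share 1 estimate of the spread per gene, so an SE does not describe 1 group alone. The sign of the Slc2a3 difference in the macrophage sort turned when metastasis array 2 was left out.

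None of the 9 hexokinase and upper glycolysis genes passed with metastasis, and their differences ran from -0.08 to 0.22 in the macrophage sort and -0.45 to 0.22 in monocytes. Hk3, a hexokinase of myeloid cells, had the lowest monocyte value, -0.45 ± 0.16. Hk2, the hexokinase that binds mitochondria and is often induced by HIF-1, stood at 0.04 ± 0.13 in the macrophage sort and -0.30 ± 0.14 in monocytes, where its groups did not overlap. Its monocyte arrays read 7.54, 7.45, 7.46, 7.62 and 7.41 in healthy and 7.38, 7.10, 7.06 and 7.23 in metastasis marrow, so every metastasis array lay below every healthy one, yet the adjusted p was 0.634 in limma. Pfkfb3, which makes the activator of phosphofructokinase, stood at 0.12 ± 0.14 and -0.06 ± 0.15. The liver-type subunit gene Pfkl stood at 0.22 ± 0.11 and 0.22 ± 0.11.

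No lower glycolysis gene passed with metastasis in either cell type. All 6 had positive differences in the macrophage sort, between 0.10 and 0.14, and 5 of 6 in monocytes. The monocyte differences ran from -0.12 ± 0.12 in Pgam1 to 0.24 ± 0.11 in Tpi1 (adjusted p = 0.655 in limma). Pkm stood at 0.11 ± 0.08 in the macrophage sort and 0.14 ± 0.08 in monocytes. Gapdh, the triose phosphate dehydrogenase often used as a reference gene, stood at 0.14 ± 0.07 and 0.14 ± 0.07. In monocytes its arrays read 10.21, 10.32, 10.27, 10.27 and 10.30 in healthy and 10.39, 10.46, 10.45 and 10.36 in metastasis marrow. Pgk1, the first ATP-producing enzyme, read 9.74, 9.89, 9.82, 9.77 and 9.90 and 10.18, 10.05, 9.99 and 9.98 there. Neither gene overlapped between the monocyte groups, and neither passed in limma (adjusted p = 0.708 and 0.493). In all, 7 of 34 members did not overlap between the monocyte groups, 6 of them higher and Hk2 lower with metastasis, where 5.41% of all genes did not overlap. The others were Slc2a1, Hif1a, Slc16a1 and Pfkp, a phosphofructokinase subunit gene. In the macrophage sort only Slc2a1 among the members did not overlap, where 1.93% of all genes did not.

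The genes that turn pyruvate to lactate or keep it from the mitochondria did not pass either. Ldha, the dehydrogenase subunit that favours lactate, stood at 0.03 ± 0.08 in the macrophage sort and 0.11 ± 0.09 in monocytes, and Pdk1, the kinase that shuts pyruvate dehydrogenase, at -0.09 ± 0.10 and -0.11 ± 0.11. Of the oxygen sensors, the prolyl hydroxylase genes Egln1 and Egln3 stood at 0.16 ± 0.14 and -0.02 ± 0.19 in the macrophage sort. In monocytes Egln1 stood at -0.10 ± 0.15 and Egln3 at 0.11 ± 0.20. Among the hypoxia-induced genes, Ankrd37, a direct HIF-1 target, had the highest macrophage value, 0.41 ± 0.13 (adjusted p = 0.122), and stood at 0.25 ± 0.13 in monocytes. Its averaged difference was 0.33 ± 0.09 (adjusted p = 0.0743 in limma), which passed only with dim genes left out (0.047) or without healthy macrophage array 3 (0.0469) or monocyte metastasis array 3 (0.0118). Bnip3, a mitophagy receptor gene, had the lowest macrophage value, -0.36 ± 0.18, against 0.13 ± 0.19 in monocytes. No member passed for a difference between the metastasis effects (0 of 34 in limma, 1 with an unadjusted p under 0.05), where 0.0619% of all genes did.

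The second comparison set the macrophage sort against monocytes of the same kind of marrow, and here most members differed. In healthy marrow 19 of 34 passed, 10 higher and 9 lower in the macrophage sort, where 28% of all genes passed. In metastasis marrow 21 of 34 passed, 11 higher and 10 lower, where 26.5% of all genes did. The median difference of the members stayed near 0 in both (0.03 and 0.07, beside -0.01 and 0.01 over all genes), since members moved in opposite directions. Of the 34, 16 did not overlap between the healthy groups and 18 between the metastasis groups, where 20.8% and 24.2% of all genes did not. The cell type comparisons share no arrays. They had 15 called members in common, 78.9% of the healthy list and 71.4% of the metastasis list, each with the same sign in both. The overlap of calls over all genes was not counted, so these shares have no background beside them and are a description. The neutrophil, B lineage and T and NK lists given above for healthy marrow differed in metastasis marrow too. There 9 of 13 neutrophil markers were higher in the macrophage sort and 3 lower. Of the B lineage markers 9 of 12 were higher there, and of the T and NK markers 10 of 10. The part of this RNA in the differences below was not tested.

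**Figure D3:**
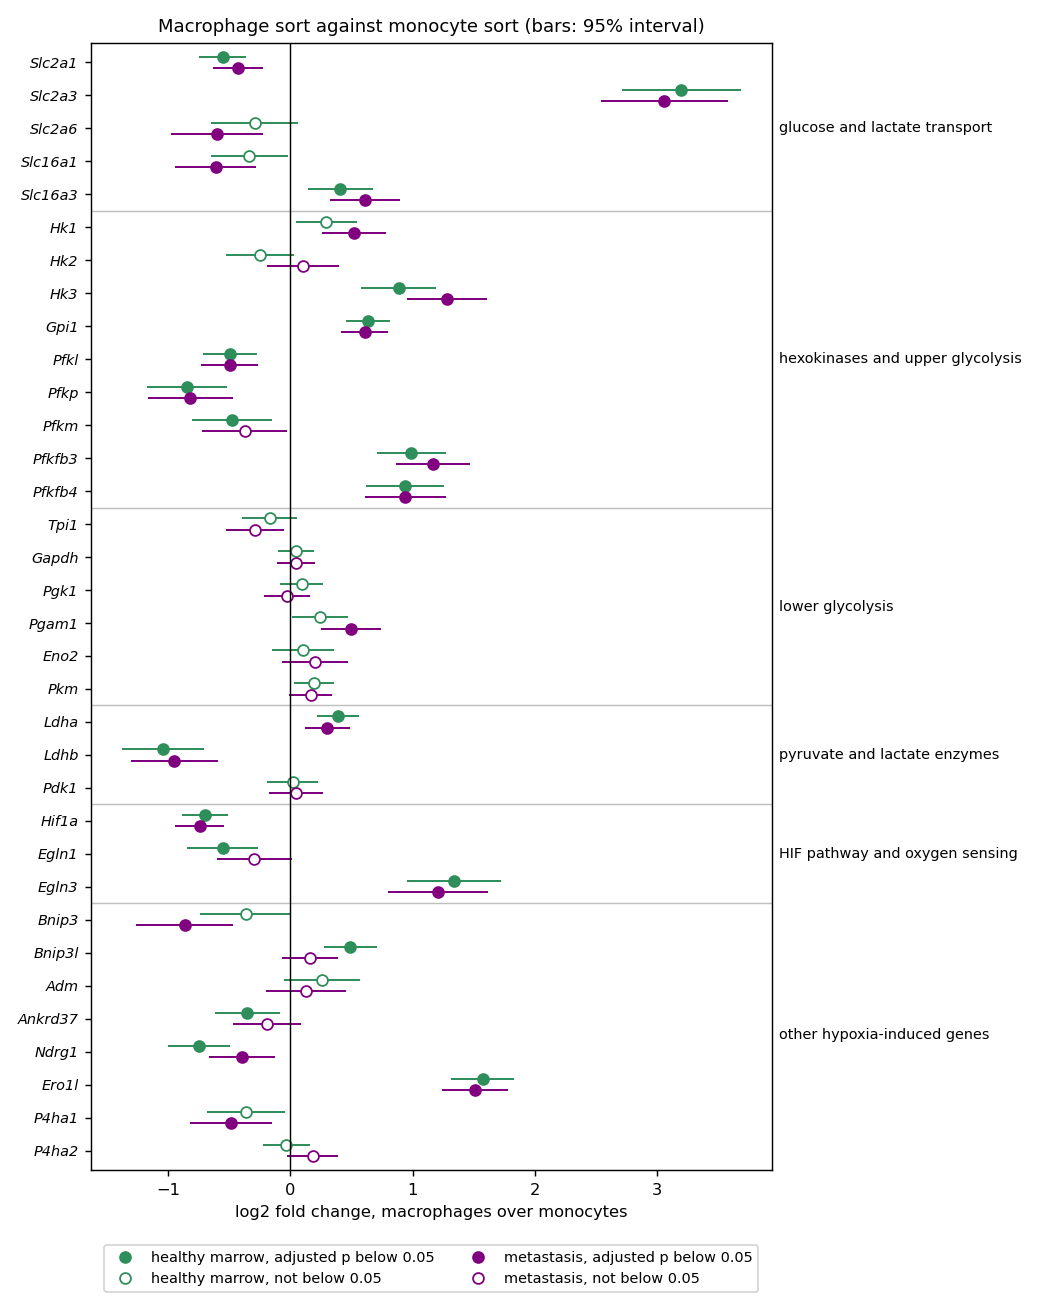
Difference of the macrophage sort minus monocytes (log2) for each of the 34 members, in healthy marrow and in metastasis marrow, grouped by role, with 95% intervals from limma; filled points passed the adjusted threshold. Slc2a3 lies farthest to the right at 3.19 and 3.06 and Ldhb farthest to the left in healthy marrow at -1.04, and Pgam1 is the only filled point among the lower glycolysis genes.

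The glucose transporters split. Slc2a3 read 6.46, 7.85, 7.74, 7.74 and 7.85 on healthy macrophage arrays and 7.83, 6.72, 7.67, 7.09 and 7.81 on metastasis ones. In monocytes it read 4.42, 3.96, 4.59, 4.10 and 4.60 and 4.31, 4.27, 4.46 and 4.43. The lowest macrophage array, healthy array 1, still lay above all monocyte arrays. The group means were 7.53 ± 0.60 and 7.43 ± 0.49 in the macrophage sort (SD, n = 5 each), and 4.33 ± 0.29 (n = 5) and 4.37 ± 0.09 (n = 4) in monocytes. Slc2a3 was 9.16-fold higher in the macrophage sort of healthy marrow (3.19 ± 0.23, adjusted p = 5.2e-10) and 8.32-fold higher in that of metastasis marrow (3.06 ± 0.25). Slc2a1 went the other way, -0.55 ± 0.09 in healthy and -0.43 ± 0.10 in metastasis marrow (adjusted p = 7.1e-05 and 0.00201 in limma), with no overlap between cell types in either. The healthy monocyte arrays of Slc2a1, 7.57, 7.75, 7.80, 7.90 and 7.73, lay at about the level of the macrophage sort in metastasis marrow. Slc16a3 was higher in the macrophage sort (0.41 ± 0.13 and 0.61 ± 0.14). Its healthy call ended without healthy macrophage array 2 or 5 or healthy monocyte array 2 or 3 (adjusted p up to 0.0709). Slc16a1 (-0.61 ± 0.16) and Slc2a6 (-0.60 ± 0.18) were lower in the macrophage sort of metastasis marrow. In healthy marrow Slc16a1 passed without macrophage array 1 (0.0374). The Slc2a6 call ended after quantile normalization (0.0559) or without monocyte metastasis array 4 (0.0656).

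**Figure D4:**
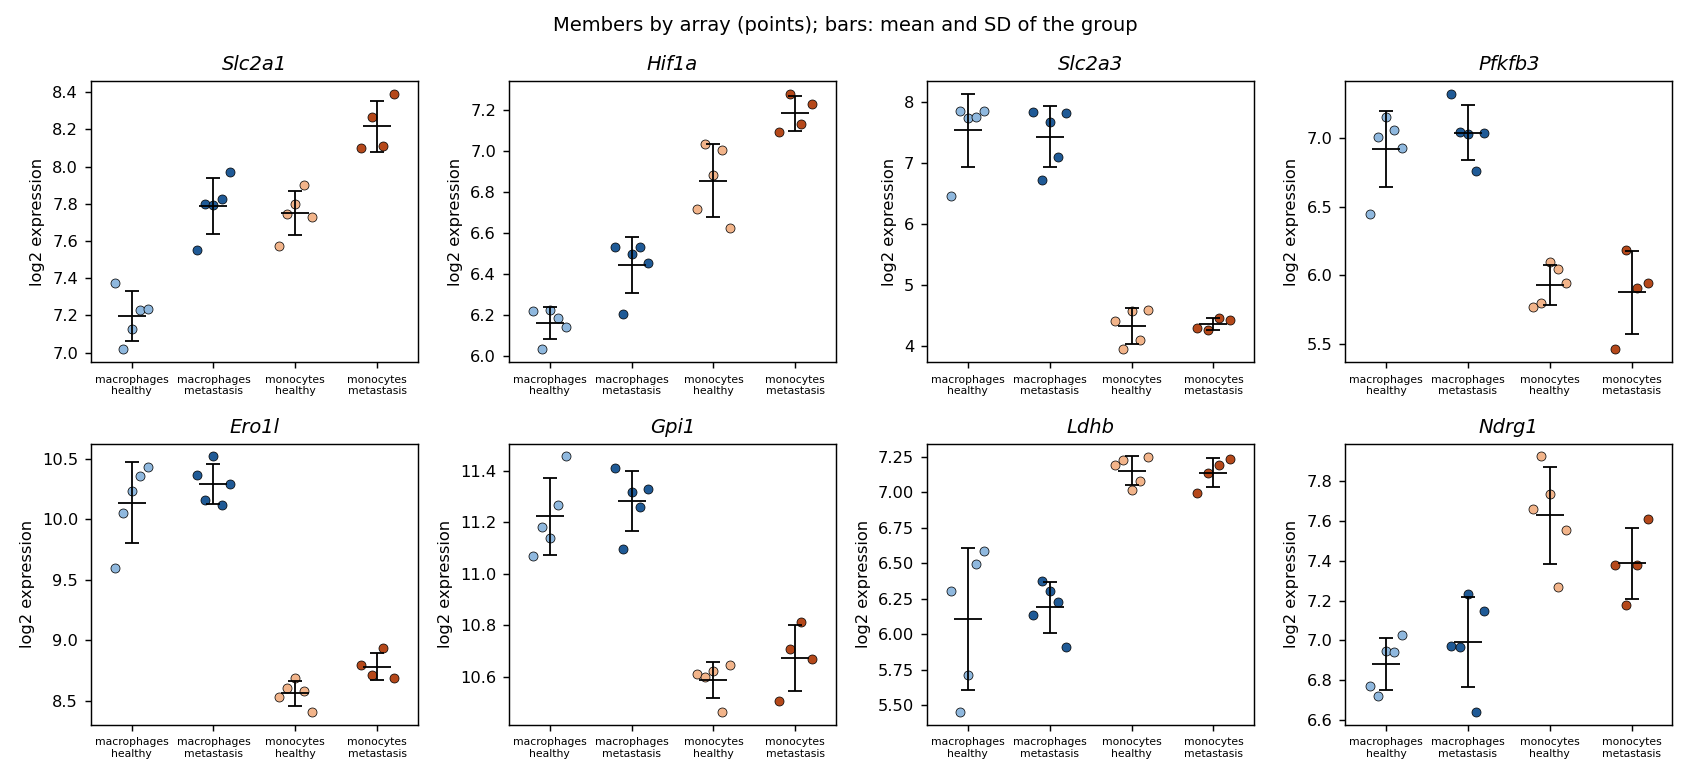
Deposited log2 level of 8 members on each of the 19 arrays, by group; each point is 1 array, and the lines give the group mean and SD. Slc2a1 steps up with metastasis in both cell types, whereas Slc2a3, Pfkfb3, Ero1l and Gpi1 separate the macrophage sort from monocytes upward and Hif1a and Ldhb separate it downward.

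Upper glycolysis also split by isoform, with 7 of 9 genes past the threshold in each marrow. Pfkfb3 read 6.45, 7.01, 7.15, 7.06 and 6.93 on healthy macrophage arrays and 5.77, 5.80, 6.10, 6.05 and 5.95 on healthy monocyte arrays, with no overlap. It was 1.99-fold higher in the macrophage sort (0.99 ± 0.14, adjusted p = 6.3e-06), and 1.16 ± 0.15 higher in metastasis marrow. Pfkfb4, its paralogue, was 0.94 ± 0.15 and 0.94 ± 0.16 higher. Hk3 was 0.89 ± 0.15 and 1.28 ± 0.16 higher. Gpi1, which converts glucose phosphate to fructose phosphate, read 11.07, 11.18, 11.14, 11.27 and 11.46 on healthy macrophage arrays and 10.61, 10.60, 10.62, 10.47 and 10.64 on healthy monocyte arrays. It was 0.63 ± 0.09 and 0.61 ± 0.09 higher (adjusted p = 5.4e-06 and 2.2e-05 in limma). All 3 phosphofructokinase subunit genes had lower values in the macrophage sort. Pfkp stood at -0.84 ± 0.16 and -0.82 ± 0.17 and Pfkl at -0.49 ± 0.11 and -0.50 ± 0.11, past the threshold in both marrows. Pfkm, the muscle-type subunit, passed in healthy marrow only (-0.47 ± 0.16, against -0.37 ± 0.17 in metastasis marrow), and 1 of its values lay at the Y-linked level. That call ended without healthy macrophage array 1 or 5 (adjusted p = 0.092 and 0.0651) or healthy monocyte array 3 or 4 (0.0868 and 0.0561), and in a fit of the healthy groups alone (0.0503). Hk1, the widely expressed hexokinase, passed in metastasis marrow (0.52 ± 0.13) and stood at 0.30 ± 0.12 in healthy marrow, where it passed in 5 of 17 alternatives, among them without healthy macrophage array 1 (0.0146). In metastasis marrow Pfkm passed without macrophage array 1 (0.0455). Hk2 did not pass in either (-0.25 ± 0.13 in healthy and 0.10 ± 0.14 in metastasis marrow).

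Lower glycolysis had the smallest share of genes that separated the cell types, as a description of the calls. Of its 6 genes, 0 passed in healthy marrow in limma (2 with an unadjusted p under 0.05) and 1 in metastasis marrow. That gene was Pgam1, the phosphoglycerate mutase, at 0.50 ± 0.12 (adjusted p = 0.00252). In healthy marrow Pgam1 passed with quantile normalization (0.0232). Tpi1, the triose phosphate isomerase gene, stood at -0.29 ± 0.11 in metastasis marrow and passed in 5 of 16 alternatives, among them equal array medians (0.0368) and the fit without macrophage array 1 (0.0355). Gapdh stood at 0.04 ± 0.07 and 0.05 ± 0.07, the latter turning to -0.013 with equal array medians. Pkm, the pyruvate kinase of immune cells, stood at 0.19 ± 0.08 in healthy marrow (adjusted p = 0.0741). It passed in 7 of 17 alternatives, among them quantile normalization (0.00904) and the fits without healthy macrophage array 1 (0.0343) or healthy monocyte array 2 (0.0499). In metastasis marrow Pkm stood at 0.17 ± 0.08 (adjusted p = 0.168 in limma), where its groups did not overlap.

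The lactate dehydrogenase subunits moved in opposite directions. Ldhb, the subunit of oxidative tissues, read 6.30, 5.45, 5.71, 6.49 and 6.58 on healthy macrophage arrays and 7.19, 7.22, 7.02, 7.08 and 7.25 on healthy monocyte arrays. Every macrophage array lay below every monocyte array. The difference was -1.04 ± 0.16 in healthy and -0.95 ± 0.17 in metastasis marrow (adjusted p = 2.4e-05 and 1.6e-04 in limma). Ldha read 4.37, 4.42, 4.62, 4.39 and 4.58 and 4.01, 4.12, 4.24, 4.04 and 4.03 on the same arrays, again with no overlap. It was 0.39 ± 0.08 higher in the macrophage sort of healthy marrow (adjusted p = 8.7e-04). In metastasis marrow it was 0.30 ± 0.09 higher (adjusted p = 0.0122), a call that ended with quantile normalization (0.0695) or equal array medians (0.0617). Ldha read low on these arrays. Its group means ran from 4.09 to 4.51, at or below the level of the array medians. It was among the dim genes left out, so that alternative gives no value for it. Pdk1 did not pass.

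The HIF pathway genes were split as well. Hif1a was lower in the macrophage sort in both marrows, -0.69 ± 0.09 and -0.74 ± 0.10 (adjusted p = 2.9e-06 and 3.2e-06 in limma), with no overlap on the arrays listed above. Egln1, the main oxygen sensor that marks HIF-1 alpha for degradation, was lower in healthy marrow (-0.55 ± 0.14) and did not pass in metastasis marrow (-0.29 ± 0.15). Egln3, a sensor that HIF itself induces, read 6.11, 5.71, 6.18, 7.00 and 6.11 on healthy macrophage arrays and 4.59, 5.18, 5.08, 4.85 and 4.72 on healthy monocyte arrays. It was 2.52-fold higher in the macrophage sort of healthy marrow (1.34 ± 0.19) and 2.31-fold higher in that of metastasis marrow (1.21 ± 0.20).

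Of the 8 other hypoxia-induced genes, 4 passed in each marrow. Ero1l, which encodes the oxidase that helps form disulphide bonds in the endoplasmic reticulum, read 9.60, 10.05, 10.24, 10.36 and 10.43 on healthy macrophage arrays and 8.53, 8.60, 8.69, 8.58 and 8.41 on healthy monocyte arrays. The groups lay well apart. Ero1l was 2.97-fold higher in the macrophage sort of healthy marrow (1.57 ± 0.12, adjusted p = 1.6e-09) and 2.85-fold higher in that of metastasis marrow (1.51 ± 0.13). Ndrg1, a stress-induced gene, went the other way. It read 6.77, 6.72, 6.95, 6.94 and 7.03 on healthy macrophage arrays and 7.66, 7.92, 7.74, 7.27 and 7.56 on healthy monocyte arrays, without overlap. Its difference was -0.75 ± 0.12 in healthy marrow (adjusted p = 4.6e-05) and -0.40 ± 0.13 in metastasis marrow (adjusted p = 0.0251). The latter call ended after quantile normalization (0.0988), without macrophage metastasis array 4 (0.0806) and without monocyte metastasis array 1, 3 or 4 (up to 0.106). Bnip3l, a mitophagy receptor gene active in maturing red cells, was higher in healthy marrow (0.49 ± 0.10) and stood at 0.16 ± 0.11 in metastasis marrow. The summed erythroid markers were 8.89 to 10.0 in the healthy macrophage sort and 7.48 to 8.29 in healthy monocytes, and their part in the Bnip3l difference was not tested. The paralogue Bnip3 passed only in metastasis marrow (-0.86 ± 0.19, against -0.37 ± 0.18 in healthy marrow), and P4ha1, a collagen prolyl hydroxylase gene, likewise (-0.49 ± 0.16). In healthy marrow Bnip3 passed without macrophage array 2 (0.0148) and P4ha1 without macrophage array 4 (0.0169). The P4ha1 call of metastasis marrow ended after quantile normalization (0.111) and without macrophage array 1 or 4 or monocyte array 1 or 2 (up to 0.118). Ankrd37 was lower in healthy marrow (-0.35 ± 0.13, adjusted p = 0.0421), a call lost in 11 of 17 alternatives (up to 0.104). Adm, the adrenomedullin gene, and P4ha2 did not pass in either, although P4ha2 passed in metastasis marrow without monocyte array 3 (0.0244).

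The upstream bases of Ero1l and Egln3, which were higher in the macrophage sort while Hif1a was lower, are given on the gene's strand with the same core letters in capitals.
Ero1l (chr14:45318573-45318822, minus strand): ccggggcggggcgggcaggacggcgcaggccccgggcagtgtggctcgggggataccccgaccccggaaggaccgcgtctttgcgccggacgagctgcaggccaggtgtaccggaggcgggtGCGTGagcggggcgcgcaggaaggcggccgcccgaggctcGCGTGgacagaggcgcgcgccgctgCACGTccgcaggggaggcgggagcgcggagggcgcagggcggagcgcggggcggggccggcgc
Egln3 (chr12:54203875-54204124, minus strand): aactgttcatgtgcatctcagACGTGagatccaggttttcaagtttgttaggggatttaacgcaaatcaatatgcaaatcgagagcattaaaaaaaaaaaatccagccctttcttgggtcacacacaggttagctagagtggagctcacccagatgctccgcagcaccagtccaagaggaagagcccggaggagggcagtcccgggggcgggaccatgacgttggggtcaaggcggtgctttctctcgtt
In Ero1l the matches began 128, 88 and 63 bases before the gene start, and in Egln3 the match began 229 bases before it. None of them lies in the palindrome CACGTG.

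Most members kept the sign of their cell type difference from healthy to metastasis marrow. Of the 34, 31 had the same sign in both, and the correlation across members was 0.969, beside 0.895 over all genes, of which 72.7% had the same sign. The members share the arrays on which they were read, so this is a description, and it does not show equal sizes: Bnip3l stood at 0.49 and 0.16, and Ndrg1 at -0.75 and -0.40. No member passed the test of a difference between the marrows. The widest such difference was that of Bnip3, -0.50 ± 0.26 (95% interval -1.04 to 0.05, adjusted p = 0.681 in limma).

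**Figure D5:**
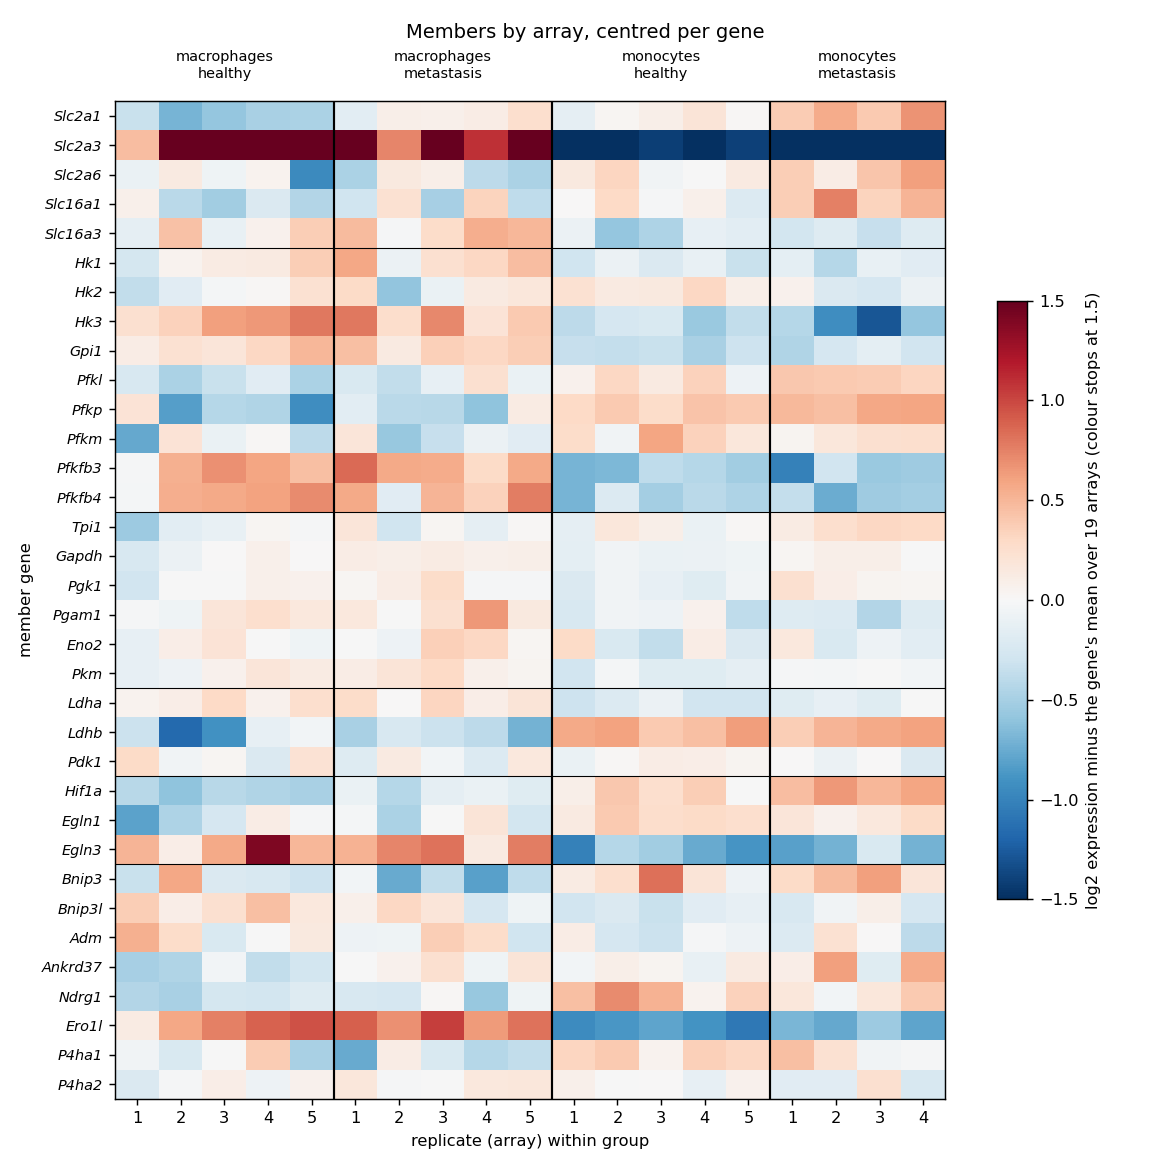
Deposited log2 level of each member minus its mean over the 19 arrays, with members in rows by role and arrays in columns by group; colour gives the difference and stops at 1.5 log2 units. Slc2a3, Ero1l and Ldhb separate the macrophage sort from monocytes on every array, no lower glycolysis gene does, and healthy macrophage array 1 stands apart from its group.

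Within groups the members varied more in the macrophage sort, where the median SD of a member was 0.226 in each marrow, than in monocytes, where it was 0.128 in healthy and 0.133 in metastasis marrow. Over all genes the median SD was 0.198 and 0.171 in the macrophage sort and 0.140 and 0.135 in monocytes. Healthy macrophage array 1 had the lowest value of its group in 20 of 34 members, and macrophage metastasis array 2 in 15. Healthy array 1 also had the lowest Cxcr2 of its group (8.20), the highest Csf1r (10.05) and the highest Adgre1 (7.90). Other markers of the same lists went the other way on it. The neutrophil gene S100a8 was the highest of the group (8.41) and the macrophage gene Slc40a1 the lowest (7.37). By summed level this array was the lowest of its group for the neutrophil list (14.24) and the highest for the macrophage list (11.44). What these levels contribute to the low member values was not tested. With both arrays left out, Slc2a1 remained the called member of the macrophage metastasis comparison.

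Genes of neighbouring pathways, listed by function, were read beside the members. Of 18 other glycolysis genes measured, 1 changed with metastasis in the macrophage sort: Eno3, the muscle enolase, fell (-0.76 ± 0.15, adjusted p = 0.0114 in limma). Of 23 other hypoxia targets, Fam162a rose there (0.46 ± 0.10, adjusted p = 0.0189). None of these lists had a called gene in monocytes, and no gene passed with metastasis among 11 of pyruvate entry, 6 of the pentose phosphate pathway, 11 of gluconeogenesis and glycogen, and 12 of the HIF machinery. The counts between cell types of healthy marrow that follow stand beside 28% of all genes called there, and the shares of the hypoxia target and HIF machinery lists were near it. Between these cell types, 5 of 6 pentose phosphate genes were higher in the macrophage sort, among them the transketolase gene Tkt (1.01 ± 0.10) and the epimerase gene Rpe (0.90 ± 0.11). Of the 11 genes of pyruvate entry, 5 were lower and 1 higher. Pdp2, a phosphatase gene of the pyruvate dehydrogenase complex, stood at -0.81 ± 0.16 and Pdhx, a structural component of that complex, at -0.79 ± 0.11. Of the 11 genes of gluconeogenesis and glycogen, 5 were higher and 1 lower, with the glycogen synthase gene Gys1 at 2.29 ± 0.16 and the branching enzyme gene Gbe1 at 1.35 ± 0.13. Of the 18 other glycolysis genes, 4 were higher and 3 lower, with the ADP-dependent glucokinase gene Adpgk at 3.22 ± 0.11. Of the 23 other hypoxia targets, 5 were higher and 3 lower: the angiogenic factor gene Vegfa stood at 2.32 ± 0.17, the circadian repressor gene Bhlhe40 at 2.65 ± 0.17 and the cytokine gene Mif at -1.04 ± 0.13. Of 12 HIF machinery genes 2 were higher and 1 lower, with Cited2, a competitor of HIF for its coactivator, at 1.09 ± 0.10 and Vhl, the gene of the ligase subunit that degrades HIF-1 alpha, at 0.32 ± 0.11. Adpgk, Vegfa, Bhlhe40 and Mif were chosen for naming after their values were seen.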

How the data were processed

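RNA of sorted mouse marrow macrophages and monocytes was measured on 19 Affymetrix MoGene 2.0 ST arrays. The authors deposited log2 values, 1 per gene symbol and array. Per the submitters' processing notes the arrays were processed with the R package oligo; how they were normalized, with which release and on which build, is not given in the sources used here. Values were used as deposited. Groups came from the labels, which give no pairing. A group-means model was fitted with limma 3.58.1 in R 4.3.3 to all 20998 genes and 19 arrays, with empirical Bayes moderation and Benjamini-Hochberg adjustment over all genes. It was tested on simulated data first. The contrasts were metastasis minus healthy in each cell type, their difference, and the macrophage sort minus monocytes in each marrow. The mean of the metastasis contrasts was added after the values were seen. The members and gene lists were chosen with earlier results of these data known, so counts over them are descriptions. Every array is shown for members that passed with metastasis, for the 4 members each way with the smallest adjusted p between healthy cell types, and for Hif1a, Hk2, Ldha, Gapdh and Pkm at least their group differences. Pgk1 and Egln3 were added after their values were seen. From other lists came the genes that passed with metastasis, otherwise the 2 with the largest cell type difference. Tceb1 and Tceb2 stood for Eloc and Elob, and 9 listed symbols had no value under that name. Array number limits the precision of every value. Alternatives were the compared groups alone, trended robust moderation, array weights, dim genes left out, quantile normalization, equal array medians and each array left out.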

Additional observations from a re-analysis of the deposited data

Results flagged for a closer look

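Single arrays stood apart from the others of their group in 10 of 136 combinations of a member and a group, by Dixon's test at the 95% level, and chance flags about 1 in 20. In the healthy macrophage sort, array 1 was alone at the low end in Slc2a3 (6.46), Pfkfb4 (6.71) and Pgk1 (9.66). In the same group Slc2a6 stood apart on array 5 (6.16) and Bnip3 on array 2 (6.43). In the macrophage sort of metastasis marrow Hif1a stood apart on array 2 (6.205). In healthy monocytes Gpi1 stood apart on array 4 (10.5) and P4ha1 on array 3 (6.29). In monocytes of metastasis marrow array 3 stood apart in Pgam1 (6.92) and P4ha2 (3.40).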

How the results depend on the processing

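Calls with metastasis rest on few members. In monocytes the count of called members was 1, but 2 with array weights, 0 with quantile normalization, and 0 to 1 over the fits with 1 array left out. In the macrophage sort it was 1 in each such fit and the difference between the effects had 0 in each. The averaged contrast had 2 to 3, and the cell type comparisons had 16 to 20 in healthy and 19 to 22 in metastasis marrow. No called member changed sign in any alternative run, and 16 of 19 and 17 of 21 cell type calls held in all of them. The members' median in the macrophage sort was 0.028 to 0.14 over these fits. Differences that did not pass turned sign. With equal array medians Ldhb in monocytes became 0.0044 and Gapdh between the cell types of metastasis marrow became -0.013. Without the 2 low macrophage arrays, an alternative chosen after seeing the data, the Hif1a difference between the effects became 0.026. With 1 array left out, macrophage differences spanned -0.37 to 0.075 in Slc2a3, -0.084 to 0.20 in Ldhb, -0.034 to 0.19 in Hk2 and -0.0075 to 0.070 in Ldha. Monocyte differences spanned -0.056 to 0.10 in Slc2a3, -0.16 to 0.082 in Pfkfb3 and -0.047 to 0.034 in Ldhb. The Hif1a difference between the effects spanned -0.093 to 0.012. The promoter share was 67.7% for ACGTG alone. The cause of these shifts was not tested. The fit of the compared groups alone gives no value for the difference between the effects or for the averaged contrast. No paired analysis was possible because the labels give no replicate number or shared mouse. Array number limits what can be seen: the median SE of a gene was 0.11 in the macrophage metastasis comparison.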

Other observations

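In the contrast that averaged both metastasis effects, which was chosen after the values were seen, 4 genes outside the 34 passed among the neighbouring pathway lists. They were 2 of 18 other glycolysis genes and 2 of 23 other hypoxia targets, where 1.74% of all genes passed. Mif, a cytokine gene also known as a HIF-1 target, was 0.42 ± 0.09 higher with metastasis (adjusted p = 0.0152 in limma). Fam162a, a mitochondrial hypoxia target, was 0.30 ± 0.07 higher (adjusted p = 0.0281). Eno3 was -0.48 ± 0.11 and Slc16a7, the monocarboxylate transporter MCT2, was -0.26 ± 0.06 (adjusted p = 0.0219 and 0.0306). Among the marker lists Cd8a (of 10 T and NK genes), Prtn3 (of 13 neutrophil genes) and Vcan (of 10 monocyte genes) were higher in it. Lower were Rag1 and Jchain (of 12 B lineage genes), Car1 (of 11 erythroid genes), and Spic and Mrc1 (of 12 macrophage genes).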
